A study of Sus scrofa with 7 samples.

Results

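T cells and natural killer (NK) cells were followed in infarcted pig heart through 37 genes that these lymphocytes use to recognise antigen, to respond to cytokines and to kill. The genes were chosen by name, with earlier results of these data known. Each is represented by its most abundant transcript row (mean of 7 libraries) among 20638 genes of the table. Of the 37 genes, 36 had a normalized read count of at least 10 in at least 3 libraries and were tested, among 15652 genes in all. CTLA4, an inhibitory receptor, was left untested, with 1.75 to 6.55 normalized counts in the S100a1 libraries and 17.9, 2.14 and 1.14 in hrLuc replicates 1 to 3. GZMH passed that filter through its hrLuc libraries alone, so its groups had to differ.

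The tissue was myocardium from the anteromidventricular part of the heart of male farm pigs, taken 14 weeks after infarction of the region that the left circumflex artery (LCX) supplies. In 4 libraries, labelled S100a1, the pigs had received human S100A1, which binds calcium and regulates contraction in cardiomyocytes, in an adeno-associated virus of serotype 5 (AAV5). In 3 libraries, labelled hrLuc, the same kind of vector carried luciferase, a reporter enzyme. Infarction and vector were thus common to both groups, and no uninjured or vector-free heart was compared. The sample titles number the libraries as separate pigs. The sources used here give neither the promoter of the vectors nor the age of the pigs. The comparison asked how the hearts given S100A1 differed from those given the reporter.

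The libraries held 28977221 to 38376242 reads in S100a1 and 28651643 to 32935922 in hrLuc, counting 1 transcript row per gene. Cardiomyocyte transcripts were abundant in every library. TNNT2, cardiac troponin T, had 108257 ± 8246 normalized counts in S100a1 (SD, n = 4) and 102699 ± 12134 in hrLuc (SD, n = 3). The pig S100A1 gene had 5933 ± 1064 normalized counts in S100a1 (SD, n = 4) and 7718 ± 1298 in hrLuc (SD, n = 3). It is unknown here whether reads of the human transgene were counted there, and the labels cannot be checked by it.

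T cells sense antigen through a receptor whose signal is carried into the cell by the CD3 chains and by CD247 (the zeta chain). The coreceptors CD4 and CD8 bind class II and class I molecules on the presenting cell and bring the kinase LCK to the receptor, which starts a chain through ZAP70 and the adaptor LAT. Cytotoxic T cells and NK cells kill by releasing perforin and granzymes from granules, and NK cells are steered by lectin-like receptors such as KLRD1 and KLRK1. In the infarcted heart T cells gather during healing. Roles given here are those known in human and mouse. In a piece of tissue, fewer T cells and less RNA per T cell cannot be told apart.

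No T or NK cell gene passed the adjusted threshold of 0.05, but most were lower in S100a1 than in hrLuc. The log2 fold change, S100a1 over hrLuc, was below 0 in 32 of the 36 tested genes, against 56.5% of all genes tested. The median log2 fold change of the 36 genes was -0.50, and that of all genes tested was -0.02. At an unadjusted p under 0.05 (limma) 9 were lower and 0 were higher, where 4.57% of all genes were lower and 3.69% were higher at that limit. In 7 genes every S100a1 value lay below every hrLuc value, a separation found in 5.31% of all genes, and in 0 genes every S100a1 value lay above, against 3.96% of all genes. GZMH is among the 9 and the 7. The list was chosen with earlier results of these data known, so these counts describe it and do not test it. Under a filter added after seeing the data, which also asked for a count of 10 in at least 1 library of each group and so left GZMH out, 8 of 35 genes were lower at an unadjusted p under 0.05 (limma), against 4.51% of all genes, and 6 were separated, against 5.26%. The test was limma with a mean-variance trend on log2(normalized count + 0.5), with Benjamini-Hochberg adjustment over all 15652 genes, of which 0.0128% (2 genes, neither of them a T or NK cell gene) passed. With 0 T or NK cell genes called by limma, edgeR's quasi-likelihood test on recovered whole reads and limma-voom also called 0. DESeq2 called 2, CD5 and CD6, where among all genes it called 36 lower and 54 higher. By the authors' deposited table CD5, CD6 and UNC13D, 3 of the 37 genes, had an adjusted p under 0.05, all lower in S100a1, where 0.661% of the genes given an adjusted p there passed in either direction and 0.328% passed as lower.

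**Figure D1:**
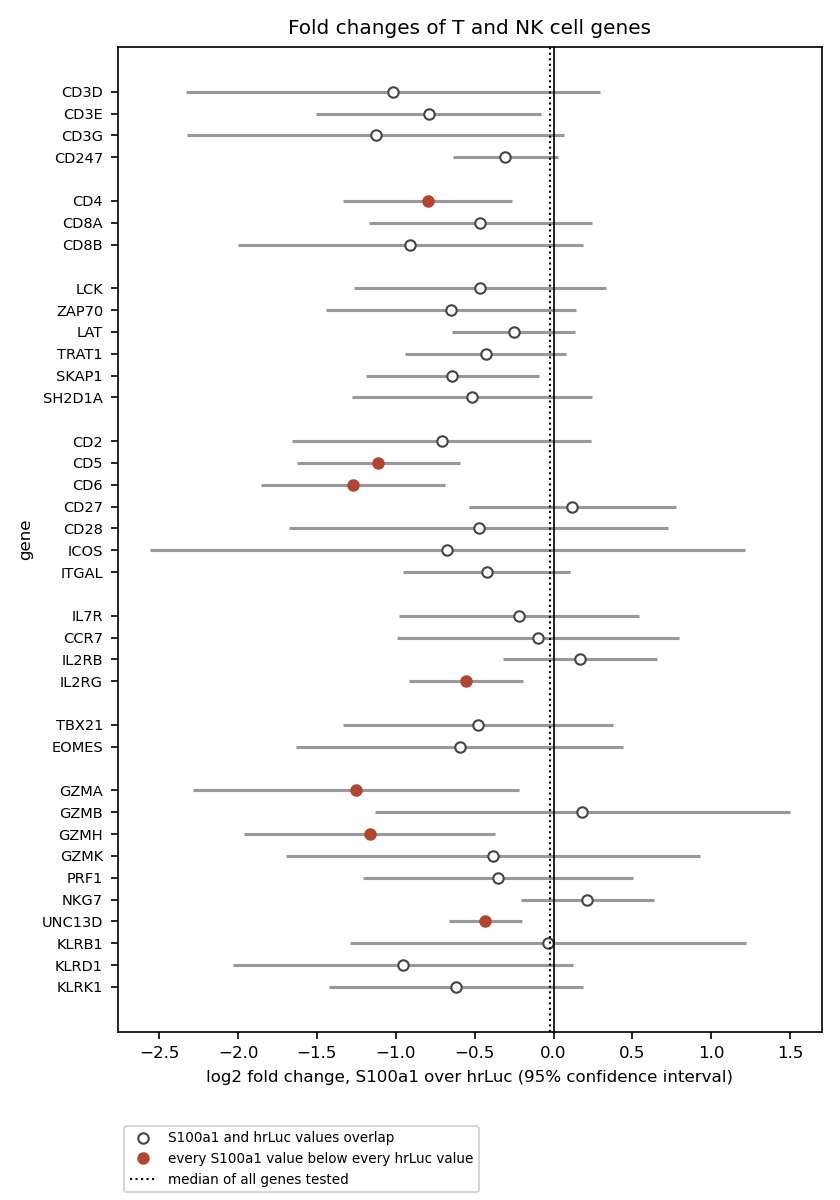
Log2 fold change of the 36 tested T and NK cell genes, S100a1 (n = 4) over hrLuc (n = 3), on the log2(normalized count + 0.5) scale, with 95% confidence intervals (grey lines), grouped by role from T cell receptor chains at the top to cytotoxic genes at the bottom. The 7 filled points are genes in which every S100a1 value lay below every hrLuc value, and the dotted line is the median of all genes tested, -0.02.

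The separation between groups rested on which hrLuc heart was looked at. Relative to the mean of each gene, the median log2 level of the 36 genes was -0.45, -0.27, -0.10 and -0.17 in S100a1 replicates 1 to 4, and 0.74, -0.28 and 0.51 in hrLuc replicates 1 to 3. Thus hrLuc replicate 2 lay within the S100a1 range, and hrLuc replicates 1 and 3 lay well above it. The same quantity over all genes tested stayed between -0.03 and 0.03 in the 7 libraries. In hrLuc replicate 1 a total of 23 of the 36 genes had their highest value, against 18.4% of all genes, and in hrLuc replicate 3 another 9 did, or 25.0% against 19.1% of all genes. In hrLuc replicate 2, 0 of the 36 genes had their highest value, against 12.9% of all genes. It held the lowest value of 6 of them, or 16.7% against 14.0% of all genes. Without hrLuc replicate 1 the median log2 fold change was -0.32 and 5 of 34 genes were lower at an unadjusted p under 0.05 (limma), where 2.43% of all genes were. Without hrLuc replicate 3 it was -0.39, again with 5 of 34 genes and 4.03% of all genes. Without hrLuc replicate 2 it was -0.88, with 22 of 35 genes and 6.31% of all genes. In none of these fits did a T or NK cell gene pass the adjusted threshold.

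**Figure D2:**
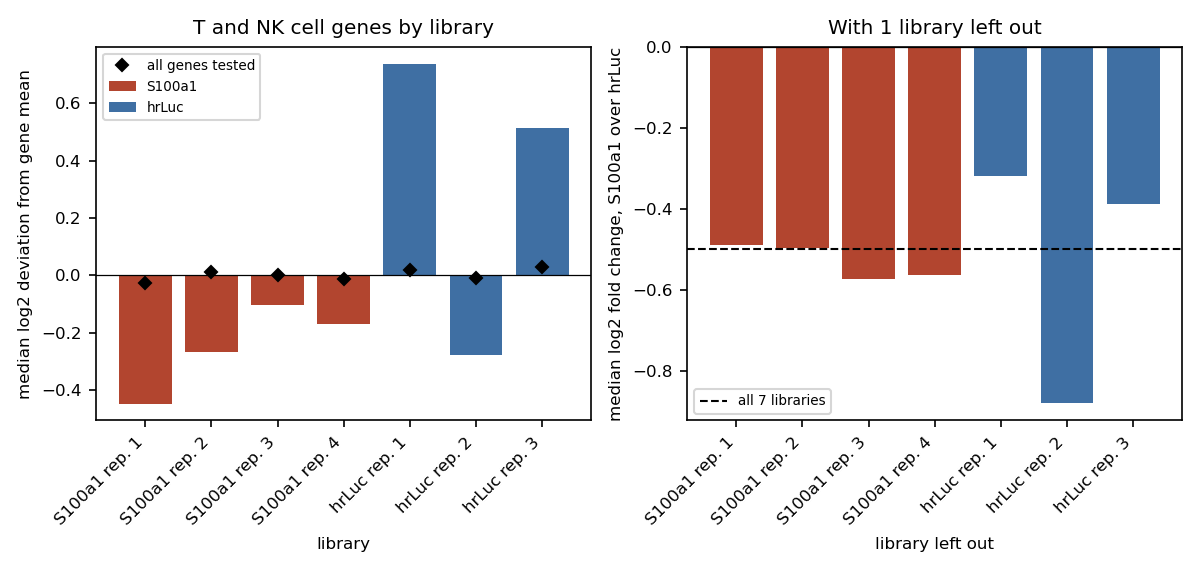
Left, median over the 36 tested T and NK cell genes of the log2 deviation from the mean of each gene, per library (bars), beside the same median over all genes tested (diamonds). Right, median log2 fold change of these genes, S100a1 over hrLuc, with each library left out in turn, beside the value of -0.50 with all 7 libraries (dashed line). The level of hrLuc replicate 2 (-0.28) sits among the S100a1 libraries, and leaving that library out moves the median fold change to -0.88.

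The chains of the T cell receptor complex were lower in S100a1 on average, with values of the groups that overlapped through hrLuc replicate 2. CD3E (chromosome 9, 45619730 to 45633972 on Sscrofa11.1) had 42.6, 44.5, 49.4 and 53.2 normalized counts in S100a1 replicates 1 to 4, against 128.0, 47.0 and 92.0 in hrLuc replicates 1 to 3. The 4 S100a1 hearts were close together, and hrLuc replicate 2 lay among them. The log2 fold change of CD3E was -0.79 ± 0.31 (SE), with an adjusted p of 0.574 (limma), and it moved to -0.47 when hrLuc replicate 1 was left out and to -1.19 when hrLuc replicate 2 was. CD3D and CD3G lie beside CD3E on chromosome 9, from 45640475 to 45656779. CD3G had 14.2, 13.3, 37.9 and 41.9 normalized counts in S100a1 replicates 1 to 4, against 86.6, 27.8 and 57.9 in hrLuc replicates 1 to 3. Within S100a1, replicates 1 and 2 were lower than replicates 3 and 4, and so it was for CD3D. S100a1 over hrLuc, CD3G had a log2 fold change of -1.13 ± 0.53 (SE) and CD3D of -1.02 ± 0.58 (SE). CD247, which NK cells also use, had 288 ± 18.8 normalized counts in S100a1 (SD, n = 4) and 361 ± 72.9 in hrLuc (SD, n = 3), a log2 fold change of -0.31 ± 0.15 (SE), smaller than those of the CD3 chains.

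Among the coreceptors CD4 separated the groups and the CD8 chains did not. CD4 had 73.2, 90.04, 116 and 127 normalized counts in S100a1 replicates 1 to 4, against 162, 141 and 227 in hrLuc replicates 1 to 3. Every S100a1 heart was below every hrLuc heart, hrLuc replicate 2 included. For CD4 the log2 fold change was -0.80 ± 0.24 (SE), with an unadjusted p of 0.00838 and an adjusted p of 0.531 (limma). CD8A had 52.4, 62.2, 90.6 and 92.5 normalized counts in S100a1 replicates 1 to 4, against 139, 63.1 and 114 in hrLuc replicates 1 to 3. Its groups overlapped, and the log2 fold change was -0.46 ± 0.31 (SE). CD8B, the partner chain that marks conventional cytotoxic T cells, had 5.56 to 18.3 normalized counts in S100a1 and 12.8 to 27.3 in hrLuc, a log2 fold change of -0.91 ± 0.48 (SE). The ratio of CD8A to CD4 counts within a library was 0.69 to 0.78 in S100a1, inside the hrLuc range of 0.45 to 0.86. These ratios are not corrected for transcript length, so they are compared between libraries only. Monocytes and macrophages of some species also express CD4, and the markers of those cells are given below.

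All 6 genes that carry the signal of the receptor had a log2 fold change below 0, with a median of -0.49, beside 56.5% and -0.02 over all genes. SKAP1, an adaptor that links the receptor to integrin adhesion, had 368 to 404 normalized counts in the 4 S100a1 hearts, against 895, 378 and 658 in hrLuc replicates 1 to 3. The S100a1 values lay within a narrow band, and hrLuc replicate 2 fell inside it. For SKAP1 the log2 fold change was -0.64 ± 0.24 (SE), with an unadjusted p of 0.0267 and an adjusted p of 0.561 (limma), and it was -0.36 without hrLuc replicate 1. LCK, the kinase brought in by the coreceptors, had 52.4, 74.5, 77.4 and 89.0 normalized counts in S100a1 replicates 1 to 4, against 157, 53.5 and 118 in hrLuc replicates 1 to 3. Its log2 fold change was -0.47 ± 0.35 (SE), and that of ZAP70 was -0.65 ± 0.35 (SE). LAT, the scaffold that ZAP70 phosphorylates, differed least of the 6 signalling genes, with 77.3 ± 11.4 normalized counts in S100a1 (SD, n = 4) and 91.6 ± 7.76 in hrLuc (SD, n = 3). The receptor-associated adaptor TRAT1 (-0.43 ± 0.23, SE) and SH2D1A (-0.52 ± 0.34, SE), an adaptor of the SLAM receptors, had log2 fold changes between those of LAT and ZAP70.

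CD6 and CD5 were the T cell genes with the smallest p. They are neighbouring genes for scavenger-type receptors that restrain signalling by the T cell receptor, and CD5 is also carried by some B cells. CD6 (chromosome 2, 10739560 to 10785548) had 55.7, 41.1, 53.5 and 60.2 normalized counts in S100a1 replicates 1 to 4, against 177, 86.6 and 133 in hrLuc replicates 1 to 3. CD5 (chromosome 2, 10648973 to 10673479) had 37.1, 36.7, 41.2 and 31.4 in S100a1 replicates 1 to 4, against 105, 62.0 and 76.1 in hrLuc replicates 1 to 3. In both genes all 4 S100a1 hearts lay below all 3 hrLuc hearts, and hrLuc replicate 2 was again the lowest of its group. The log2 fold change of CD6 was -1.27 ± 0.26 (SE, 95% confidence interval -1.86 to -0.69), with an unadjusted p of 0.000833 and an adjusted p of 0.414 (limma). That of CD5 was -1.11 ± 0.23 (SE, 95% confidence interval -1.63 to -0.59), with an unadjusted p of 0.000917 and an adjusted p of 0.414 (limma). In the authors' deposited table CD6 had a log2 fold change of -1.33 with an adjusted p of 0.00334, and CD5 had -1.15 with an adjusted p of 0.0170. DESeq2 on the recovered reads gave an adjusted p of 0.00456 for CD6 and 0.0247 for CD5. With each library left out CD6 stayed between -1.55 and -1.03 and CD5 between -1.29 and -0.91 on the log2 scale, and neither passed in any of these limma fits. An annotated non-coding gene overlaps CD6, and the sources used here do not say how the counting treated strand. The ratio of CD6 to CD3E counts within a library was 0.93 to 1.31 in S100a1 and 1.38 to 1.84 in hrLuc, so CD6 was also lower relative to CD3E in all 4 S100a1 hearts.

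The other adhesion and costimulation genes were spread widely. CD2, an adhesion receptor, had 49.1, 62.2, 94.7 and 66.3 normalized counts in S100a1 replicates 1 to 4, against 184, 50.3 and 139 in hrLuc replicates 1 to 3, a log2 fold change of -0.71 ± 0.42 (SE). ITGAL, the alpha chain of the integrin LFA-1, had a log2 fold change of -0.42 ± 0.23 (SE). ICOS, a costimulator of activated T cells, had 9.83 to 12.2 normalized counts in the 4 S100a1 hearts, against 70.6, 3.21 and 21.6 in hrLuc replicates 1 to 3. Thus hrLuc replicates 1 and 3 lay above all S100a1 hearts, replicate 1 by far the most, and hrLuc replicate 2 was the lowest of all 7. The log2 fold change of ICOS, -0.67 ± 0.83 (SE), became 0.32 without hrLuc replicate 1. CD28, the main costimulator of naive T cells, behaved alike, with 33.9 normalized counts in hrLuc replicate 1 and 6.42 to 12.5 in the other 6 libraries. CD27, a costimulator of the TNF receptor family, had 21.6 ± 3.56 normalized counts in S100a1 (SD, n = 4) and 20.03 ± 4.49 in hrLuc (SD, n = 3), a log2 fold change of 0.12 ± 0.29 (SE, 95% confidence interval -0.54 to 0.77).

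**Figure D3:**
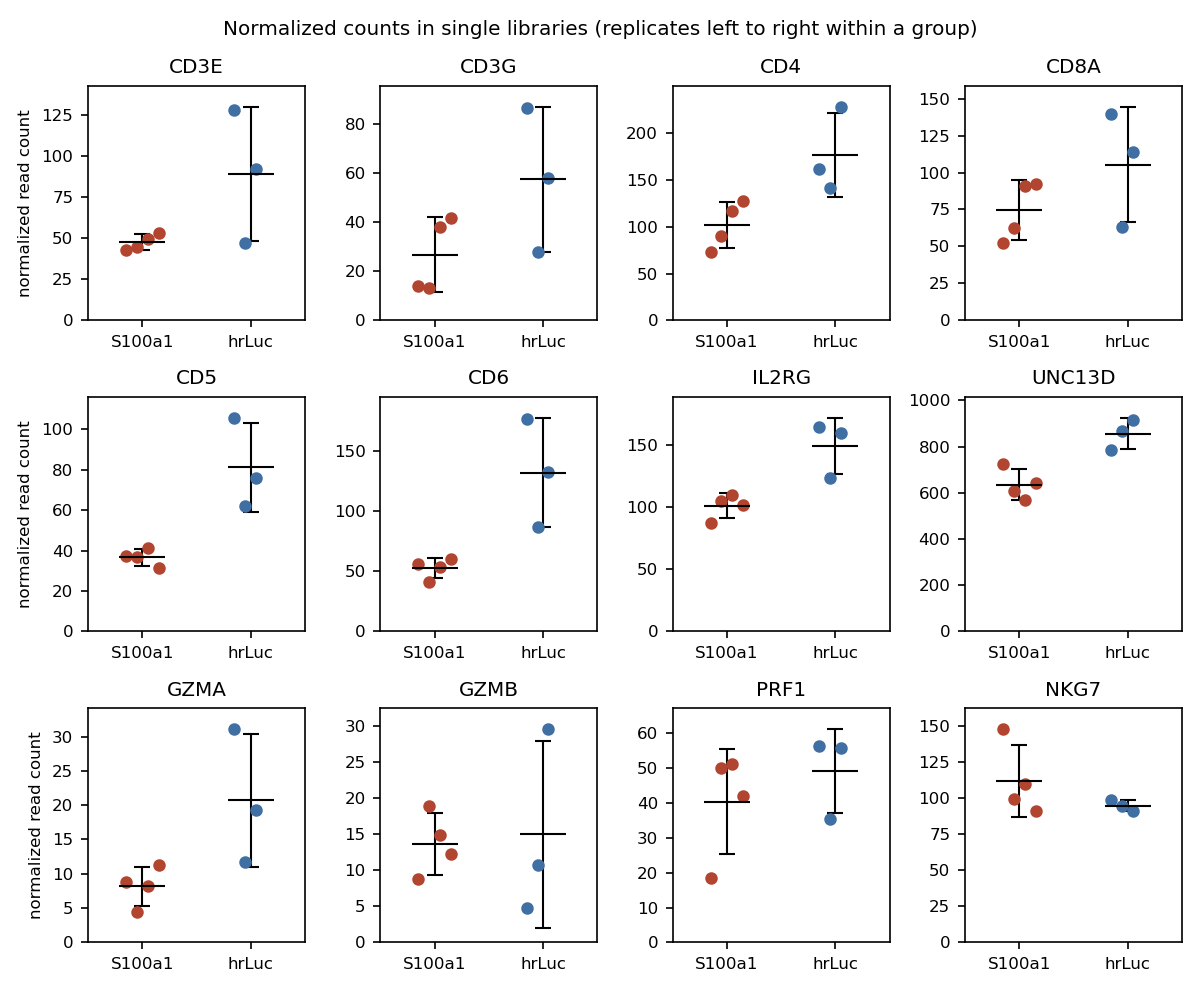
Normalized read counts of 12 T and NK cell genes in single libraries, S100a1 (4 points, replicates 1 to 4 from left to right) and hrLuc (3 points, replicates 1 to 3 from left to right), with the mean (horizontal line) and SD (bars), each panel starting at 0. In CD4, CD5, CD6, IL2RG, UNC13D and GZMA every S100a1 point lies below every hrLuc point, whereas CD3E, CD3G, CD8A, GZMB, PRF1 and NKG7 overlap.

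Of the cytokine and homing receptors IL2RG was lower in S100a1 and the others were not separated. IL2RG, the common gamma chain shared by the receptors for IL-2, IL-7 and IL-15, had 87.4, 106, 110 and 102 normalized counts in S100a1 replicates 1 to 4, against 165, 124 and 160 in hrLuc replicates 1 to 3. All S100a1 hearts lay below all hrLuc hearts. IL2RG had a log2 fold change of -0.55 ± 0.16 (SE), with an unadjusted p of 0.00701 and an adjusted p of 0.529 (limma), and IL2RG overlaps MED12. IL2RB, the beta chain, went the other way on average, with 1593, 980, 1002 and 852 normalized counts in S100a1 replicates 1 to 4, against 1001, 758 and 1153 in hrLuc replicates 1 to 3. The high mean of S100a1 came from replicate 1, and the log2 fold change of 0.17 ± 0.22 (SE) became -0.02 without it. IL7R, which maintains naive and memory T cells, had a log2 fold change of -0.22 ± 0.33 (SE). CCR7, which leads T cells to lymph nodes, had 14.0 to 22.2 normalized counts in S100a1, against 38.6, 15.0 and 14.8 in hrLuc replicates 1 to 3, and its log2 fold change of -0.10 ± 0.39 (SE) became 0.35 without hrLuc replicate 1.

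Of the 10 cytotoxic genes 8 had a log2 fold change below 0, with a median of -0.41, beside 56.5% and -0.02 over all genes. GZMH is among the 8, and the filter that it passed had fixed its sign. GZMA, a trypsin-like granzyme, had 8.74, 4.45, 8.24 and 11.3 normalized counts in S100a1 replicates 1 to 4, against 31.1, 11.8 and 19.3 in hrLuc replicates 1 to 3. The groups were just separated, with a log2 fold change of -1.25 ± 0.46 (SE), an unadjusted p of 0.0231 and an adjusted p of 0.556 (limma). GZMH, a granzyme gene next to GZMB, had 7.64, 5.56, 6.59 and 6.98 normalized counts in S100a1 replicates 1 to 4, against 19.8, 12.8 and 14.8 in hrLuc replicates 1 to 3, a log2 fold change of -1.16 ± 0.35 (SE). GZMB, the main death-inducing granzyme, (chromosome 7, 74705499 to 74708781) had another pattern. Its normalized counts were 8.74, 18.9, 14.8 and 12.2 in S100a1 replicates 1 to 4, against 4.71, 10.7 and 29.5 in hrLuc replicates 1 to 3. The hrLuc heart with the most CD3E had the least GZMB, and the log2 fold change of GZMB was 0.18 ± 0.58 (SE, 95% confidence interval -1.13 to 1.499). GZMK had 6.55, 5.56, 20.6 and 18.3 in S100a1 replicates 1 to 4, against 25.4, 8.55 and 13.6 in hrLuc replicates 1 to 3, with no separation. The 4 granzymes had 4.45 to 31.1 normalized counts in the 7 libraries, and reads of close paralogs can be shared.

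Among the genes of the killing granules UNC13D separated the groups, and PRF1 and NKG7 did not. PRF1, perforin, had 18.6, 50.02, 51.1 and 41.9 normalized counts in S100a1 replicates 1 to 4, against 56.5, 35.3 and 55.7 in hrLuc replicates 1 to 3. S100a1 replicate 1 was lowest and the other 3 lay within the hrLuc range, giving a log2 fold change of -0.35 ± 0.38 (SE). NKG7, a granule membrane protein, had 112 ± 25.0 normalized counts in S100a1 (SD, n = 4) and 94.6 ± 3.99 in hrLuc (SD, n = 3), a log2 fold change of 0.21 ± 0.19 (SE). S100a1 replicate 1 had the most NKG7, 147 normalized counts, and without that library the log2 fold change was 0.07. UNC13D, which primes granules for release and is also used by other blood cells, had 726, 607, 570 and 641 normalized counts in S100a1 replicates 1 to 4, against 785, 868 and 916 in hrLuc replicates 1 to 3. The groups did not overlap, and unlike the T cell receptor genes UNC13D was not low in hrLuc replicate 2. Its log2 fold change was -0.43 ± 0.10 (SE), with an unadjusted p of 0.00226 and an adjusted p of 0.466 (limma). In the authors' deposited table UNC13D had a log2 fold change of -0.43 with an adjusted p of 0.0396, and DESeq2 on the recovered reads gave 0.0951. UNC13D overlaps UNK.

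The lectin-like killer receptors and the transcription factors of effector cells also overlapped between groups. KLRD1 (CD94), which pairs with NKG2 receptors to read class I molecules, had 31.7, 11.12, 22.2 and 21.8 normalized counts in S100a1 replicates 1 to 4, against 55.5, 19.2 and 59.1 in hrLuc replicates 1 to 3, a log2 fold change of -0.95 ± 0.47 (SE). KLRK1 (NKG2D), which senses stress ligands, had a log2 fold change of -0.62 ± 0.35 (SE). KLRB1 had 4.36 to 24.0 normalized counts in S100a1 and 12.8 to 15.9 in hrLuc, a log2 fold change of -0.04 ± 0.55 (SE) whose sign depended on the setting. TBX21 (T-bet), which drives effector genes in T and NK cells, had 45.9, 73.4, 89.0 and 79.4 normalized counts in S100a1 replicates 1 to 4, against 109, 52.4 and 161 in hrLuc replicates 1 to 3. Again hrLuc replicate 2 lay among the S100a1 values, and TBX21 had a log2 fold change of -0.48 ± 0.38 (SE) and the related factor EOMES one of -0.59 ± 0.46 (SE).

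**Figure D4:**
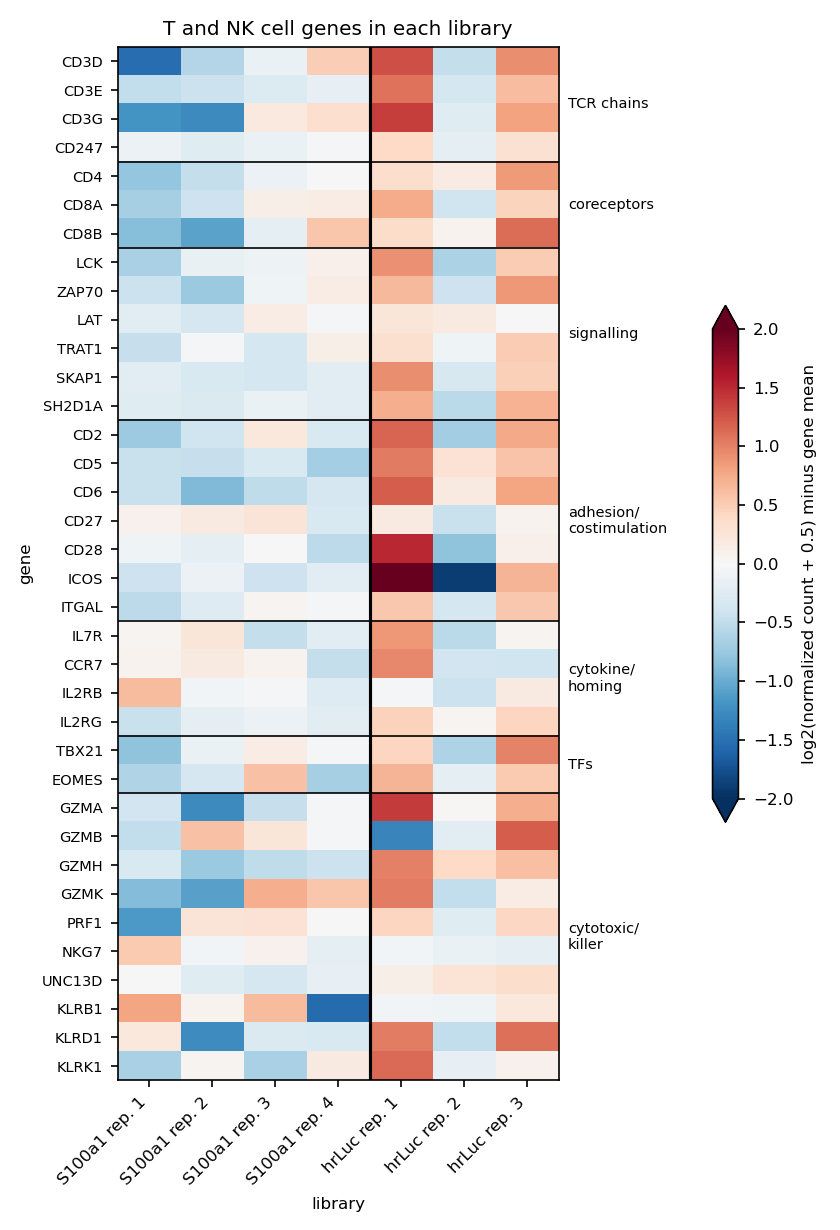
Level of each of the 36 tested T and NK cell genes in the 4 S100a1 libraries (left of the black line) and the 3 hrLuc libraries (right), as log2(normalized count + 0.5) minus the mean of that gene, grouped by role, with colours limited to -2 to 2. The columns of hrLuc replicates 1 and 3 are mostly red, and the column of hrLuc replicate 2 resembles those of S100a1, with the T cell receptor chains, SKAP1 and CD2 showing the contrast and GZMB, NKG7 and KLRB1 departing from it.

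Other genes of T cell identity and signalling were also mostly below 0. Of 30 such genes beyond the 37, 28 were tested, and 24 had a log2 fold change below 0, with a median of -0.29, beside 56.5% and -0.02 over all genes. At an unadjusted p under 0.05 (limma) 6 were lower and 1 was higher, beside 4.57% and 3.69% of all genes, and none passed the adjusted threshold. The smallest p were those of ITGA4, an integrin chain for entry into tissue (-0.61 ± 0.19, SE), CD48, a ligand of SLAM-type receptors (-0.77 ± 0.25, SE), and BCL11B, a factor of T cell commitment (-0.66 ± 0.24, SE). Of 13 NK cell genes 11 were tested, and 7 were below 0 and 4 above, beside 56.5% of all genes below 0. Their median log2 fold change was -0.06, with 0 at an unadjusted p under 0.05 (limma). The smallest p among them were those of TYROBP (-0.36 ± 0.17, SE), CRTAM (-1.06 ± 0.58, SE), CD96 (-0.55 ± 0.34, SE) and CD226 (-0.41 ± 0.29, SE). NCR1, an activating receptor largely restricted to NK cells, had 18.7 ± 7.79 normalized counts in S100a1 (SD, n = 4) and 18.1 ± 6.08 in hrLuc (SD, n = 3). The 9 tested regulatory and checkpoint genes had a median log2 fold change of -0.04, with 5 below 0 and 4 above. IKZF2, a factor of the Ikaros family, was the 1 gene higher at an unadjusted p under 0.05 (limma, log2 fold change 0.24). Next by p came PDCD1 (-0.97 ± 0.54, SE), HAVCR2 (-0.54 ± 0.41, SE) and TIGIT (-0.55 ± 0.46, SE), all lower on average with overlapping groups. FOXP3, the factor of regulatory T cells, had 34.9 to 92.8 normalized counts in S100a1 and 49.2 to 73.4 in hrLuc. Of the effector products, IFNG, IL2, IL17A and IL21 were below the filter, and 6 were tested with a median of -0.30.

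All 6 tested chemokines that attract T cells had a log2 fold change below 0, with a median of -0.69, and 3 were lower at an unadjusted p under 0.05 (limma), beside 56.5% of all genes below 0 and 4.57% lower at that limit. CXCL9, an interferon-induced ligand of CXCR3, had 8.74, 26.7, 21.4 and 23.6 normalized counts in S100a1 replicates 1 to 4, against 138, 20.3 and 51.1 in hrLuc replicates 1 to 3. As for the T cell receptor genes, hrLuc replicates 1 and 3 were high and hrLuc replicate 2 was not. CXCL12, the ligand of CXCR4, had 1807, 2016, 2670 and 3638 normalized counts in S100a1 replicates 1 to 4, against 4045, 4298 and 4334 in hrLuc replicates 1 to 3, and here hrLuc replicate 2 was as high as the others. On the log2 scale the difference was -0.79 ± 0.21 (SE) for CXCL12 and -0.59 ± 0.16 (SE) for CCL2, a ligand of CCR2, with an adjusted p of 0.513 for both (limma). The 11 tested ligands of the receptors described above had a median of -0.10, and 10 were below 0, beside 56.5% of all genes. ICAM1, the ligand of LFA-1, was at -0.31 ± 0.15 (SE). ALCAM, the ligand of CD6, was the 1 above 0, at 0.35 ± 0.25 (SE).

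Genes of all leukocytes moved with the T cell genes. The summed normalized counts of 7 such genes, PTPRC (CD45) among them, were 3124 to 3885 in S100a1, against 5519, 3365 and 4941 in hrLuc replicates 1 to 3. All 7 had a log2 fold change below 0 with a median of -0.29, beside 56.5% and -0.02 over all genes. Relative to PTPRC, CD3E was still lower, at 0.0337 to 0.0393 in S100a1 and 0.0399 to 0.0635 in hrLuc, with hrLuc replicate 2 next to the highest S100a1 value. The 12 markers of macrophages and monocytes summed to 6934 to 10777 in S100a1 and 7517 to 11820 in hrLuc, with 6 of 12 below 0 and a median log2 fold change of 0.01. The 8 markers of B cells summed to 142 to 214 in S100a1 and 182 to 308 in hrLuc, and the 4 that were tested were all below 0. The 5 plasma cell markers summed to 207 to 260 in S100a1, against 477, 254 and 250 in hrLuc replicates 1 to 3. Of the neutrophil markers S100A8, S100A9, S100A12 and MPO had means under 1 normalized count. The 5 mast cell markers summed to 904 to 1393 in S100a1 and 1630 to 2529 in hrLuc, a sum that KIT dominated, whereas 3 of the 5 were above 0 and their median log2 fold change was 1.07. The 4 red cell markers, which follow the blood left in the tissue, summed to 92.8 to 243 in S100a1 and 121 to 336 in hrLuc, and hrLuc replicate 2 had the 121. ALAS2 dominated that sum, with a mean of 127 in S100a1 and 166 in hrLuc, against 35.4 and 51.7 for HBB. Of the 3 tested red cell markers 2 were below 0 and 1, SLC4A1, was above. The 6 fibroblast markers were all below 0, with a median log2 fold change of -0.27, and 5 of 7 cardiomyocyte markers were above 0, with a median of 0.08. The 6 endothelial markers had a median of -0.06. The part of these other cells and of blood in the T cell differences was not tested.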

How the data were processed

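RNA was measured in 7 pig myocardium libraries, 4 S100a1 and 3 hrLuc. Libraries were made from total RNA with ribosomal RNA depletion, per the labels' protocols. The submitters' processing notes name DESeq2 1.33.1, FastQC 0.11.8, R 4.1.2 and Sscrofa11.1. The aligner, the counter and the use of strand are not stated. The authors' deposited values form a normalized signal, in which, by the steps between values, the reads of every transcript were divided by the same factor within a library. A single read was worth 0.824 to 1.14 units, and 100% of the values divided by it gave a whole number within 0.01 read, so whole reads were recovered. The deposited log2 and ratio columns hold the authors' fold change, and the deposited p-value column their adjusted p, with no method named.

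All 63562 rows matched a RefSeq gene, and positions come from the RefSeq table of Sscrofa11.1. Of the 37 genes, 16 had several rows, of which the highest was used, and 5 overlap another gene. limma 3.58.1 (R 4.3.3) had 5 residual and 3.85 prior degrees of freedom. Tests were two-sided, and fold changes on the log2(value + 0.5) scale understate those of low genes. edgeR 4.0.16, DESeq2 1.42.0 and limma-voom were run on the recovered reads. The alternatives were other scalings, filters, pseudocounts and transcript rows, a robust prior, a replicate block and each library left out. Fits were tested on simulated counts. The genes, lists and tests were chosen with earlier results of these data known. Described genes were those of smallest p in each role, beside CD3E, CD4, CD8A, CD8B, the granzymes and PRF1, and up to 4 of smallest p in each other list. Other genes described were chosen after their values were seen. No sequence is shown, and levels of different genes were not compared, because transcript lengths were not used here.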

Additional observations from a re-analysis of the deposited data

How the results depend on the processing

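Across all alternatives the median log2 fold change of the T and NK cell genes stayed below 0. With 1 library left out it ran from -0.88 to -0.32, and the number of genes below 0 from 26 to 33. The number lower at an unadjusted p under 0.05 (limma) ran from 5 to 22, where 2.43% to 6.31% of all genes were lower at that limit. Of the T and NK cell genes 0 were called in either direction. Among all genes, 0 to 3 were then called lower and 0 to 1 higher. Without an hrLuc library, GZMH no longer passed the filter. With all libraries limma called 1 gene lower and 1 higher. Median centring called 0 lower, quantile normalization called 2 higher, limma-voom called 0 in each direction, and DESeq2 called 36 lower and 54 higher, 2 of the lower ones being CD5 and CD6. A filter of 50 kept 21 T and NK cell genes, 19 of them below 0. The standard errors of GZMB, KLRB1, CCR7, ICOS and CD28 were 0.39 to 0.83 on the log2 scale. Among these genes the 95% confidence interval was narrowest for CCR7, from -0.99 to 0.80, and widest for ICOS, from -2.56 to 1.21. Differences well above the standard error could therefore be missed. Other genes had standard errors in the same range, CD3D (0.58), GZMK (0.58), CD3G (0.53) and CD8B (0.48) among them.

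The sign turned for KLRB1 with median centring (0.011), pseudocount 5 (0.031), edgeR (0.22) and DESeq2 (0.22), for GZMB with edgeR (-0.080) and DESeq2 (-0.097), and for IL2RB with the lowest or middle transcript row (-0.041). Leaving out 1 library gave log2 fold changes from -0.33 to 0.35 for CCR7, from -0.30 to 0.48 for KLRB1, from -0.021 to 0.30 for IL2RB, from -1.01 to 0.14 for CD28, from -1.81 to 0.32 for ICOS, from -0.55 to 0.15 for IL7R, from -0.42 to 0.84 for GZMB, from -0.75 to 0.013 for GZMK and from -0.074 to 0.24 for CD27. The cause was not tested.

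Replicate numbers showed no sign of pairing the hearts, though correlations over so few libraries cannot exclude it. Deviations from the group means correlated at -0.022, -0.076 and 0.083 for numbers 1 to 3 across genes, and not every library correlated best with its own number. With the replicate number as a block, 0 genes were called in each direction. In that fit S100a1 replicate 4 has no partner and does not enter the difference. The median of the T and NK cell genes was then -0.56, beside -0.02 over all genes, and CCR7 (0.047) and KLRB1 (0.48) turned sign.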

Other observations

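Receptor genes that the table names by description only were looked at after the values above had been seen. The locus described as the constant region of the T cell receptor beta chain (LOC100621559) had 25.1, 42.2, 21.4 and 39.3 normalized counts in S100a1 replicates 1 to 4, against 72.5, 51.3 and 71.6 in hrLuc replicates 1 to 3. Every S100a1 heart was below every hrLuc heart, with a log2 fold change of -1.05 ± 0.29 (SE), an unadjusted p of 0.00606 and an adjusted p of 0.513 (limma). The beta chain belongs to the alpha-beta receptor of conventional T cells. The constant region of the delta chain (LOC102160313), which belongs to gamma-delta T cells, a cell type abundant in pig blood, had 26.2, 34.5, 24.7 and 34.9 normalized counts in S100a1 replicates 1 to 4, against 53.6, 28.9 and 43.2 in hrLuc replicates 1 to 3. The groups overlapped, with a log2 fold change of -0.44 ± 0.28 (SE). The difference between the 2 loci was not tested.

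Other killer genes named in the table overlapped between groups. GZMM, granzyme M, had 80.0 ± 21.96 normalized counts in S100a1 (SD, n = 4) and 67.6 ± 25.3 in hrLuc (SD, n = 3), and KLRF1, an activating NK receptor in human, had 36.5 ± 5.47 in S100a1 and 39.2 ± 17.5 in hrLuc. KLRG1, an inhibitory receptor of T and NK cells, had 53.7 ± 17.3 in S100a1 and 65.9 ± 19.3 in hrLuc. A further locus described as CD94 (LOC100519314) had 31.1 to 44.5 normalized counts in S100a1, against 81.9, 33.1 and 70.4 in hrLuc replicates 1 to 3. As in KLRD1, hrLuc replicates 1 and 3 lay above all S100a1 hearts and hrLuc replicate 2 did not. Reads of the 2 loci can be shared. CXCR6, a receptor of tissue-resident T cells, was the gene of the wider T cell list with a higher value at an unadjusted p of 0.0396 (limma), with 209, 111, 154 and 127 normalized counts in S100a1 replicates 1 to 4, against 96.9, 102 and 108 in hrLuc replicates 1 to 3. Every S100a1 value of CXCR6 lay above every hrLuc value, a separation found in 3.96% of all genes.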
